A study of Homo sapiens with 6 samples.

Results

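The Notch receptor and Jagged ligand genes were followed as 8 members of the Notch pathway: the ligand genes JAG1 and JAG2, the receptor genes NOTCH1, NOTCH2 and NOTCH3, the nuclear factor genes RBPJ and MAML1, and the target gene HES1. They were chosen by name, with earlier results of these data known, and all 8 were found among the 16949 genes of the deposited table. The cells were CWR-R1, an established human prostate cancer line that grows without testicular androgen. The SOX2-KO group (3 libraries, labelled SOX2 negative) is labelled as a knockout of the gene of the stem cell transcription factor SOX2, and the Control group (3 libraries, labelled SOX2 positive) was called untreated in the titles. The labels state neither the knockout method nor whether the line is 1 clone. Nothing says that each replicate was its own culture, and the p-values therefore cover the spread among these libraries, which may be technical.

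Notch signalling passes between touching cells. A ligand of the Jagged or Delta-like family on one cell binds a Notch receptor on the next, the receptor is cut by an ADAM protease and then by gamma-secretase, and its freed intracellular part enters the nucleus. There it joins the DNA-binding protein RBPJ and a Mastermind-like coactivator such as MAML1, and genes of the HES and HEY repressor families are switched on. Without the intracellular part, RBPJ recruits co-repressors. In the prostate the pathway is known for roles in epithelial development and in the balance of basal and luminal cells.

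The promoter windows of 4 genes are printed. They are HES1, the target that moved against its group, HES4 and HEY2, targets that fell, and JAG1, a Jagged ligand gene that fell. No link between these sequences and the changes was tested. Each window runs from 250 bases before to 50 bases after the gene start, as RefSeq gives it on GRCh38.p14, and capitals mark the motifs TGGGAA (the core of the RBPJ site), ACAATG and ACAAAG (SOX core sequences), searched on both strands.
HES1: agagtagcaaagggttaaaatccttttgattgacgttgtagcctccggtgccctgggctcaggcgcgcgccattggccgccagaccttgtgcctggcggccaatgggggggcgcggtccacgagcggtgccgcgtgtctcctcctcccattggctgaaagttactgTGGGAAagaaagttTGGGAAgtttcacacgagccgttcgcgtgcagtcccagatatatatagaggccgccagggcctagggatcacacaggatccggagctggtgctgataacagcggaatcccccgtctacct
HES4: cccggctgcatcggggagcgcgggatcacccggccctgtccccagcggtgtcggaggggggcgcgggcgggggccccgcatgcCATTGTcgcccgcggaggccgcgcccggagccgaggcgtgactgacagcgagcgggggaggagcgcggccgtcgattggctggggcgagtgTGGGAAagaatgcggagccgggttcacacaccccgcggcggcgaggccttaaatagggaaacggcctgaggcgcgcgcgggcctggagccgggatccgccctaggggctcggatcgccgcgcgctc
HEY2: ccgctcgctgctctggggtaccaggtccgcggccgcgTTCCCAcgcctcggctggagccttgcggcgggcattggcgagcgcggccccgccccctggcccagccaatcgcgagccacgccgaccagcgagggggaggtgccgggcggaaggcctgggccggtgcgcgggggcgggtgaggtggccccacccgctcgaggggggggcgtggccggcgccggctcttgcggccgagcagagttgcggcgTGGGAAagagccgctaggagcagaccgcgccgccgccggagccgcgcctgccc
JAG1: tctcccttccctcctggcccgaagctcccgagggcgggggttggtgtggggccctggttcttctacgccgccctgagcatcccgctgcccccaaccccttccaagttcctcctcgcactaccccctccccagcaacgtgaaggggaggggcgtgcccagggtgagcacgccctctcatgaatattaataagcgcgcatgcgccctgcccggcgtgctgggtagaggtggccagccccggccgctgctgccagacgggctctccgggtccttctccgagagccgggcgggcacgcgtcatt
The HES1 window (chr3:194135898-194136197, plus strand) held 2 copies of TGGGAA, which began 84 and 70 bases before the start. HES4 (chr1:1000048-1000347, minus strand) held 1 copy of TGGGAA and 1 of ACAATG, and HEY2 (chr6:125749382-125749681, plus strand) held 2 copies of TGGGAA. No match to these letters stood in the window of JAG1 (chr20:10673950-10674249, minus strand), nor in those of JAG2, NOTCH1, NOTCH2, NOTCH3, MAML1 and HES7, a target that fell. The 5 windows of RBPJ held 2 copies of TGGGAA, 2 of ACAAAG and 1 of ACAATG among them, while NRARP held 1 ACAATG and HES6 1 ACAAAG. Of 35116 windows in the table, 24.0% held TGGGAA, 10.8% ACAATG and 16.1% ACAAAG, so single matches are common, and a match is not shown to be a site in use.

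Levels are given in CPM (counts per 1000000 reads on the listed genes, as the authors deposited them) with SD and n = 3 in each group. The depth behind them was estimated at 21948972, 22069378 and 25739758 reads for SOX2-KO replicates 1, 2 and 3 and at 21846203, 25323864 and 20717787 reads for Control replicates 1, 2 and 3. Every member had at least 290 estimated reads in every library. SOX2 itself had 4.70, 4.56 and 3.83 CPM in SOX2-KO replicates 1, 2 and 3, against 55.7, 54.3 and 55.5 CPM in Control replicates 1, 2 and 3 (a log2 fold change of −3.39 ± 0.08 with its standard error, at a limma adjusted p of 1.65e-08). For SOX2 an exact permutation test, two-sided, returned 0.1, which is the lowest p that 3 against 3 libraries can give. The 6 luminal prostate markers were all listed, with summed levels of 2360 to 2565 CPM in SOX2-KO and 1735 to 1752 CPM in Control, and none of the 4 basal markers was listed. Of the endothelial markers only VWF was listed, at 19.9 to 21.2 CPM in SOX2-KO and 2.96 to 4.08 CPM in Control; its part in the results was not tested. Of the fibroblast markers only COL1A1 was listed, at 1.68 to 2.14 CPM in SOX2-KO and 4.75 to 4.93 CPM in Control, and its part was not tested either.

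The ligand and receptor genes fell together in SOX2-KO, while RBPJ and HES1 rose. Of the 8 members 7 were called at a limma adjusted p under 0.05 over all genes, 5 lower and 2 higher. Much of the transcriptome differed between the groups, and the same test called 57.8% of all 15927 genes tested, 32.9% lower and 25% higher. The median log2 fold change was −0.31 over the 8 members and −0.06 over all genes tested. In 6 of the members the groups did not overlap, 4 lower and 2 higher in SOX2-KO, beside 64.5% of all genes tested, 36.3% lower and 28.2% higher.

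**Figure D1:**
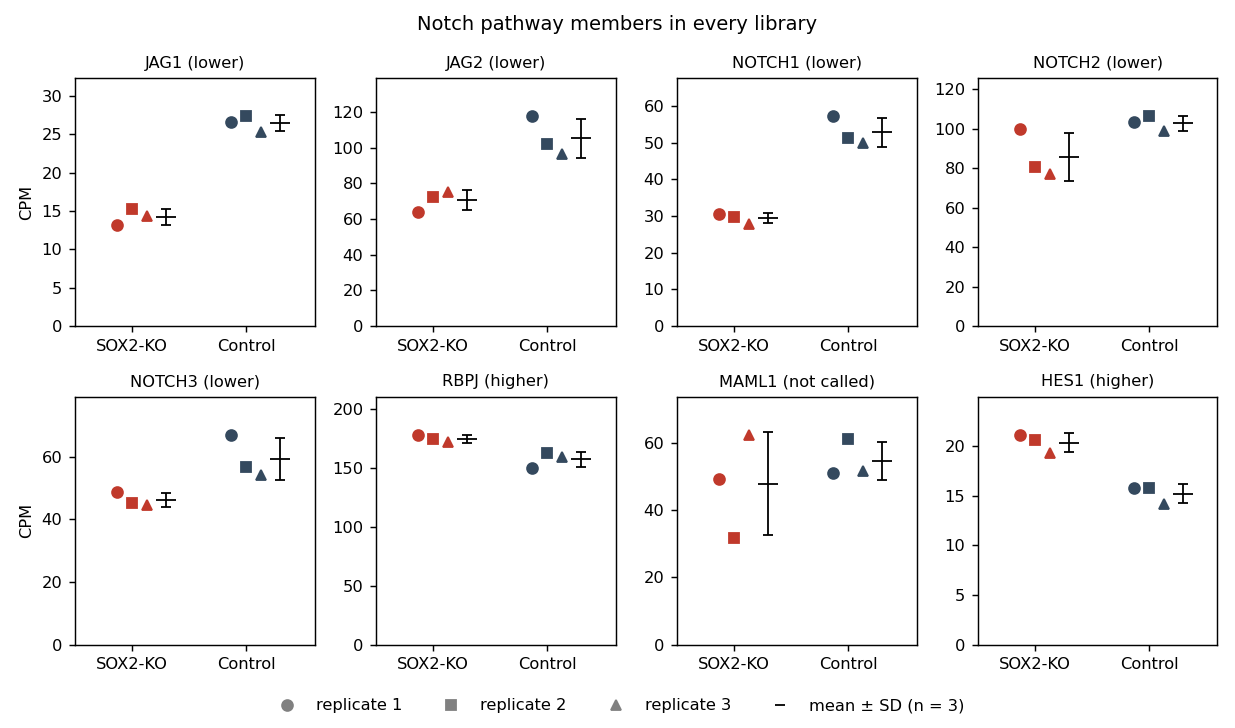
Level in CPM (vertical axes, from 0) of the 8 members in each library, SOX2-KO in red and Control in dark blue, with marker shape for the replicate and black bars for the mean ± SD. JAG1, JAG2, NOTCH1 and NOTCH3 lie lower in all SOX2-KO libraries than in any Control library, RBPJ and HES1 lie higher, and the groups overlap in NOTCH2 and MAML1.

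Both Jagged ligand genes fell. JAG1, whose product is a membrane ligand of Notch receptors, had 13.2, 15.3 and 14.3 CPM in SOX2-KO replicates 1, 2 and 3, against 26.6, 27.4 and 25.3 CPM in Control replicates 1, 2 and 3. The highest SOX2-KO value of JAG1 lay well below the lowest Control value, and the SOX2-KO mean was 53.9% of the Control mean (log2 fold change −0.85 ± 0.07, standard error; adjusted p = 1.62e-05). JAG2, the second Jagged ligand, had 64.2, 72.2 and 75.1 CPM in SOX2-KO and 118, 102 and 96.6 CPM in Control, again with no overlap. The SOX2-KO mean of JAG2 was 66.9% of the Control mean (log2 −0.57 ± 0.08; adjusted p = 3.13e-04). JAG1 (ENSG00000101384) lies on the minus strand of chromosome 20, from 10637684 to 10673999 on GRCh38, and JAG2 (ENSG00000184916) on the minus strand of chromosome 14, from 105140981 to 105168824. JAG2 shares 7.33% of its exonic bases with another annotated gene on its strand, and JAG1 shares 0.85% with an antisense gene. No source used here says whether counting was by strand. In bulk libraries, fewer cells that express a gene and less of its RNA per cell cannot be told apart.

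The proportion of the Jagged ligands shifted a little further towards JAG2. The log2 ratio of JAG1 to JAG2 on the log2(CPM + 1) scale was −2.20, −2.17 and −2.32 in SOX2-KO libraries and −2.10, −1.86 and −1.89 in Control libraries. The groups did not overlap, with a difference of −0.28, and p was 0.1 by an exact permutation test (two-sided), the lowest this design can give. DLL1, a Delta-like ligand gene and the only other ligand gene listed, stood near 1 CPM and was not called, with 1.06 ± 0.107 CPM in SOX2-KO and 1.19 ± 0.0783 CPM in Control (adjusted p = 0.581).

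NOTCH1 fell most among the receptor genes. It had 30.5, 29.6 and 27.9 CPM in SOX2-KO replicates 1, 2 and 3, against 57.2, 51.2 and 49.96 CPM in Control replicates 1, 2 and 3. The groups were far apart, with 55.6% of the Control mean left (log2 −0.82 ± 0.06; adjusted p = 9.40e-06). NOTCH3 had 48.8, 45.3 and 44.6 CPM in SOX2-KO libraries and 67.0, 56.7 and 54.0 CPM in Control libraries. Its groups did not overlap, and its mean was 78.0% of the Control mean (log2 −0.35 ± 0.08; adjusted p = 0.00489). The value was −0.20 with the trend on GC content removed (adjusted p = 0.022), −0.21 with the trend on length removed (adjusted p = 0.0432) and −0.05, no longer called, with the neighbourhood subtracted (adjusted p = 0.537). Without Control replicate 1, the highest NOTCH3 library, it was −0.26 (adjusted p = 0.00806). NOTCH1 (ENSG00000148400) lies on the minus strand of chromosome 9, from 136494433 to 136545786, and NOTCH3 (ENSG00000074181) on the minus strand of chromosome 19, from 15159038 to 15200981.

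NOTCH2 fell by less than NOTCH1, and its call ended under more settings than that of any other member. It had 99.7, 80.6 and 77.3 CPM in SOX2-KO replicates 1, 2 and 3, against 104, 106 and 98.9 CPM in Control replicates 1, 2 and 3. SOX2-KO replicate 1 lay within the Control range and the other SOX2-KO libraries lay below it (log2 −0.27 ± 0.09; adjusted p = 0.0256). The call ended without SOX2-KO replicate 2 (adjusted p = 0.0846), SOX2-KO replicate 3 (0.0771), Control replicate 1 (0.0678) or Control replicate 2 (0.0813). It also ended under quantile normalisation (0.0538), median-ratio scaling (0.0846), neighbourhood subtraction (0.189) and removal of the trend on length (log2 −0.10, adjusted p = 0.268). Over the alternatives the adjusted p of NOTCH2 ran from 2.48e-04, without SOX2-KO replicate 1 (log2 −0.38), to 0.268. NOTCH2 (ENSG00000134250) lies on the minus strand of chromosome 1, from 119911553 to 120069626.

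NOTCH2 also shares sequence with a human-specific partial copy, NOTCH2NLA, so reads could be divided between them. NOTCH2NLA fell to 16.1 ± 1.15 CPM in SOX2-KO, against 29.6 ± 1.26 CPM in Control (log2 −0.84 ± 0.07; adjusted p = 1.46e-05). Summed, NOTCH2 and NOTCH2NLA had 102.0 ± 11.7 CPM in SOX2-KO and 133 ± 4.81 CPM in Control (log2 −0.38 ± 0.07; adjusted p = 0.00193), with no overlap between the groups.

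The receptor genes changed unequally. The log2 ratio of NOTCH1 to NOTCH2 was −1.68, −1.42 and −1.44 in SOX2-KO libraries and −0.85, −1.04 and −0.97 in Control libraries, without overlap (exact two-sided permutation p = 0.1). NOTCH1 to NOTCH3 gave −0.66, −0.60 and −0.66 in SOX2-KO and −0.23, −0.15 and −0.11 in Control, also without overlap and with the same exact p. The ratio of NOTCH3 to NOTCH2 overlapped between groups, at −1.02 to −0.78 in SOX2-KO and −0.90 to −0.62 in Control (exact permutation p = 0.6). These ratios were chosen after the values were seen and are descriptions of the spread between libraries.

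RBPJ, the DNA-binding factor of the pathway, rose slightly. It had 178, 174 and 172 CPM in SOX2-KO replicates 1, 2 and 3, against 150.3, 162 and 159 CPM in Control replicates 1, 2 and 3. All SOX2-KO values lay above the Control values, by 11.1% in the means (log2 0.15 ± 0.04; adjusted p = 0.0121). The call ended with the median of neighbouring genes subtracted (log2 0.06, adjusted p = 0.268), and the value was 0.26 with the length trend removed (adjusted p = 3.68e-04). RBPJ has annotated processed pseudogenes, and no source used here says how shared reads were counted. The gene (ENSG00000168214) lies on the plus strand of chromosome 4, from 26163455 to 26435131.

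MAML1, the coactivator that binds the RBPJ and Notch complex, was not called. It had 49.5, 31.9 and 62.6 CPM in SOX2-KO replicates 1, 2 and 3, against 51.2, 61.3 and 51.8 CPM in Control replicates 1, 2 and 3. The SOX2-KO libraries ranged both below and above all Control libraries, from at least 703 estimated reads (log2 −0.23 ± 0.20, 95% interval −0.69 to 0.22; adjusted p = 0.347). The log2 fold change was 0.03 without SOX2-KO replicate 2 (adjusted p = 0.853) and −0.45 without SOX2-KO replicate 3, where it was called (adjusted p = 0.0429), so no direction is given. Its spread among SOX2-KO libraries is larger than the reads behind it would give by counting, and the cause was not tested. MAML1 (ENSG00000161021) lies on the plus strand of chromosome 5, from 179732850 to 179777286.

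HES1, a repressor of the basic helix-loop-helix family and the best known direct Notch target, rose. It had 21.2, 20.6 and 19.3 CPM in SOX2-KO replicates 1, 2 and 3, against 15.8, 15.8 and 14.1 CPM in Control replicates 1, 2 and 3. All SOX2-KO values lay above the Control values, by 33.8% in the means (log2 0.40 ± 0.07; adjusted p = 0.00152). HES1 (ENSG00000114315) lies on the plus strand of chromosome 3, from 194136145 to 194138732, on the same arm as SOX2 and beyond it.

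**Figure D2:**
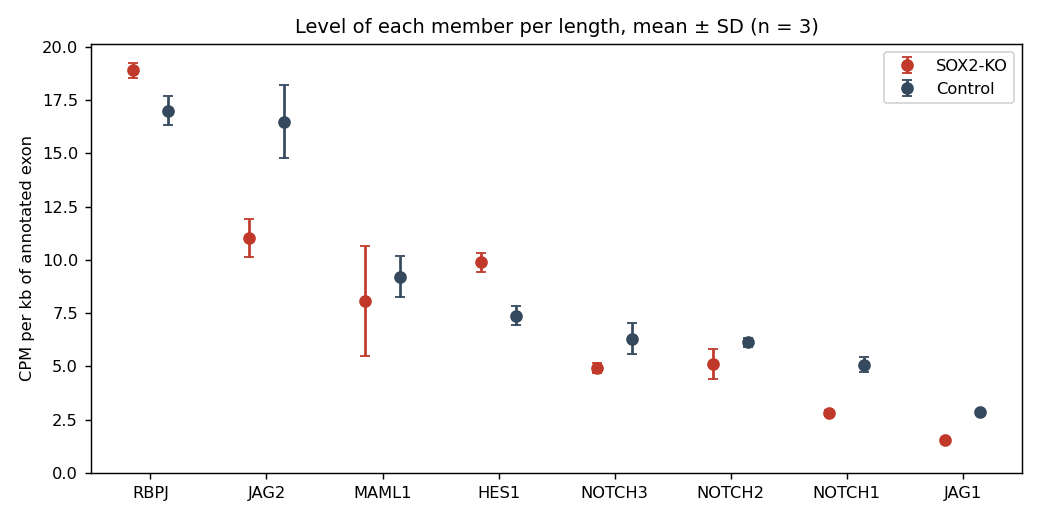
Level of each member in CPM per kb of annotated exon (vertical axis, from 0), SOX2-KO in red left of Control in dark blue, as mean ± SD over 3 libraries. RBPJ stands highest in SOX2-KO, at 18.9 CPM per kb, and JAG1 lowest in both groups, at 1.53 in SOX2-KO and 2.84 in Control.

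Per kb of annotated exon, RBPJ and JAG2 had the highest means of the members and JAG1 the lowest. Divided by the kb of annotated exon, the SOX2-KO order was RBPJ (18.9 ± 0.35 CPM per kb), JAG2 (11.02 ± 0.881), HES1 (9.89 ± 0.456), MAML1 (8.07 ± 2.59), NOTCH2 (5.11 ± 0.722), NOTCH3 (4.92 ± 0.244), NOTCH1 (2.83 ± 0.126) and JAG1 (1.53 ± 0.111). From JAG2 to NOTCH3 each neighbour in that order overlapped the next, while RBPJ, NOTCH1 and JAG1 stood apart from theirs. In Control the order was RBPJ (17.0 ± 0.679 CPM per kb), JAG2 (16.5 ± 1.72), MAML1 (9.21 ± 0.954), HES1 (7.39 ± 0.457), NOTCH3 (6.31 ± 0.729), NOTCH2 (6.13 ± 0.227), NOTCH1 (5.09 ± 0.372) and JAG1 (2.84 ± 0.11). There RBPJ overlapped JAG2, and NOTCH3 overlapped both HES1 and NOTCH2, while JAG2 and MAML1, MAML1 and HES1, NOTCH2 and NOTCH1, and NOTCH1 and JAG1 did not overlap. With the longest coding transcript as the length, only RBPJ, NOTCH1 and JAG1 kept their place in both groups. In SOX2-KO, HES1 (12.9 CPM per kb) then stood above JAG2 (12.1), with overlapping ranges.

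HES1 rose, while most tested genes around it fell. Of 46 other tested genes that start within 5 Mb of HES1, 35 were called lower and 2 higher in SOX2-KO, with a median log2 fold change of −0.60. Over the 96 other tested genes of chromosome 3 beyond SOX2, 73 were called lower and 4 higher (median −0.47). Of all genes tested, 32.9% were called lower and 25% higher (median −0.06). The nearest protein-coding genes tested before HES1 were OPA1, a mitochondrial fusion gene, with 43.7 ± 2.63 CPM in SOX2-KO and 53.9 ± 0.795 CPM in Control (log2 −0.30), and MB21D2, with 1.33 ± 0.31 CPM in SOX2-KO and 3.63 ± 0.365 CPM in Control (log2 −0.998). The nearest after it were ATP13A3, a transporter gene, with 166 ± 6.69 CPM in SOX2-KO and 257 ± 4.08 CPM in Control (log2 −0.62), and TMEM44, with 1.29 ± 0.171 CPM in SOX2-KO and 2.63 ± 0.228 CPM in Control (log2 −0.66), which has an antisense gene beside it. All 4 were called lower. With the median of the neighbours subtracted in each library, HES1 was 0.96 ± 0.08 higher on the log2 scale (adjusted p = 3.60e-06).

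**Figure D3:**
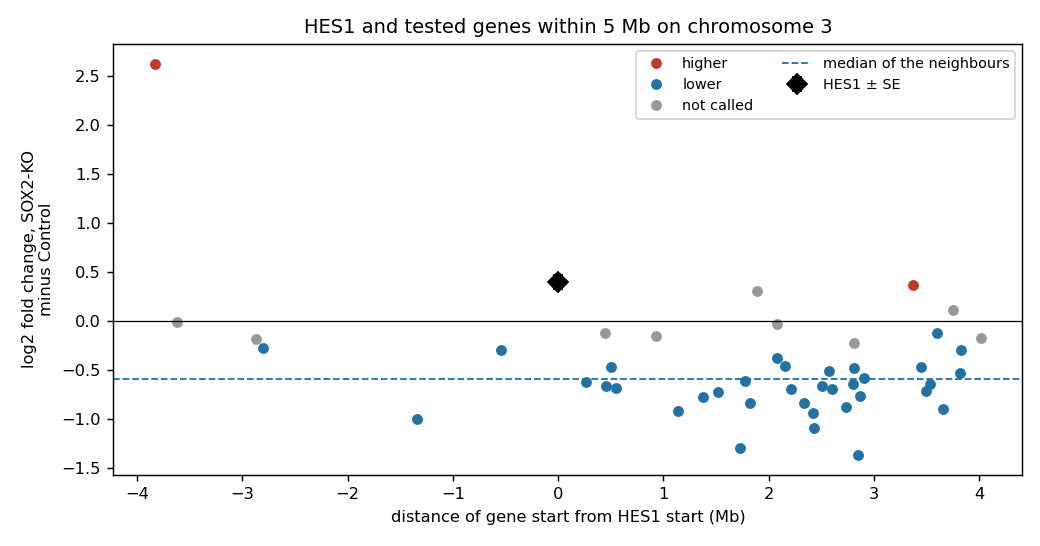
Log2 fold change on log2(CPM + 1), SOX2-KO minus Control (vertical axis), of HES1 and the 46 other tested genes within 5 Mb on chromosome 3, against the distance of their starts in Mb (horizontal axis). HES1 (black diamond, ± standard error) lies at 0.40, above zero, while 35 of the neighbours were called lower (blue) and the median of the neighbours is −0.60 (dashed line). Of all genes tested, 32.9% were called lower.

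The neighbourhoods of the other members moved less. The difference between SOX2-KO and Control in the median of genes within 5 Mb was −0.23 around JAG1, −0.20 around JAG2, −0.26 around NOTCH1, −0.14 around NOTCH2, −0.29 around NOTCH3, 0.09 around RBPJ and −0.12 around MAML1, all on the log2 scale. Subtracting it left JAG1 at −0.62 (adjusted p = 5.59e-05), JAG2 at −0.37 (3.80e-04) and NOTCH1 at −0.56 (4.96e-05), all called. It ended the calls of NOTCH2 (log2 −0.13, adjusted p = 0.189), NOTCH3 (log2 −0.05, adjusted p = 0.537) and RBPJ (log2 0.06, adjusted p = 0.268). The part of the neighbourhood in these changes was not tested otherwise.

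**Figure D4:**
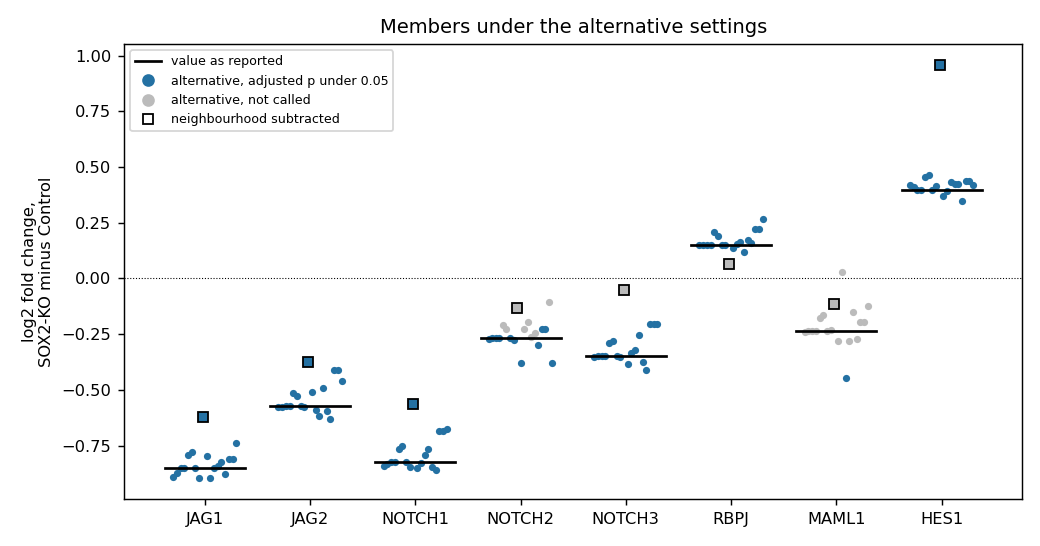
Log2 fold change, SOX2-KO minus Control (vertical axis), of each member under the alternative settings (points, blue where called) and as reported (black line), with the neighbourhood subtraction as outlined squares. JAG1, JAG2, NOTCH1 and HES1 were called under every setting shown, while NOTCH2, NOTCH3 and RBPJ lost the call under at least 1 setting and MAML1 crossed zero.

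In the wider pathway more genes fell than rose. A list of 65 Notch pathway genes, the 8 members included, was also chosen with earlier results of these data known. It held 55 tested genes, of which 30 were called lower and 12 higher. The median log2 fold change over the 55 was −0.29, against −0.06 over all genes tested. Of all genes tested, 57.8% were called, 32.9% lower and 25% higher, so the higher calls of the list are near the share over all genes. Without the members, 25 of 47 were called lower and 10 higher.

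**Figure D5:**
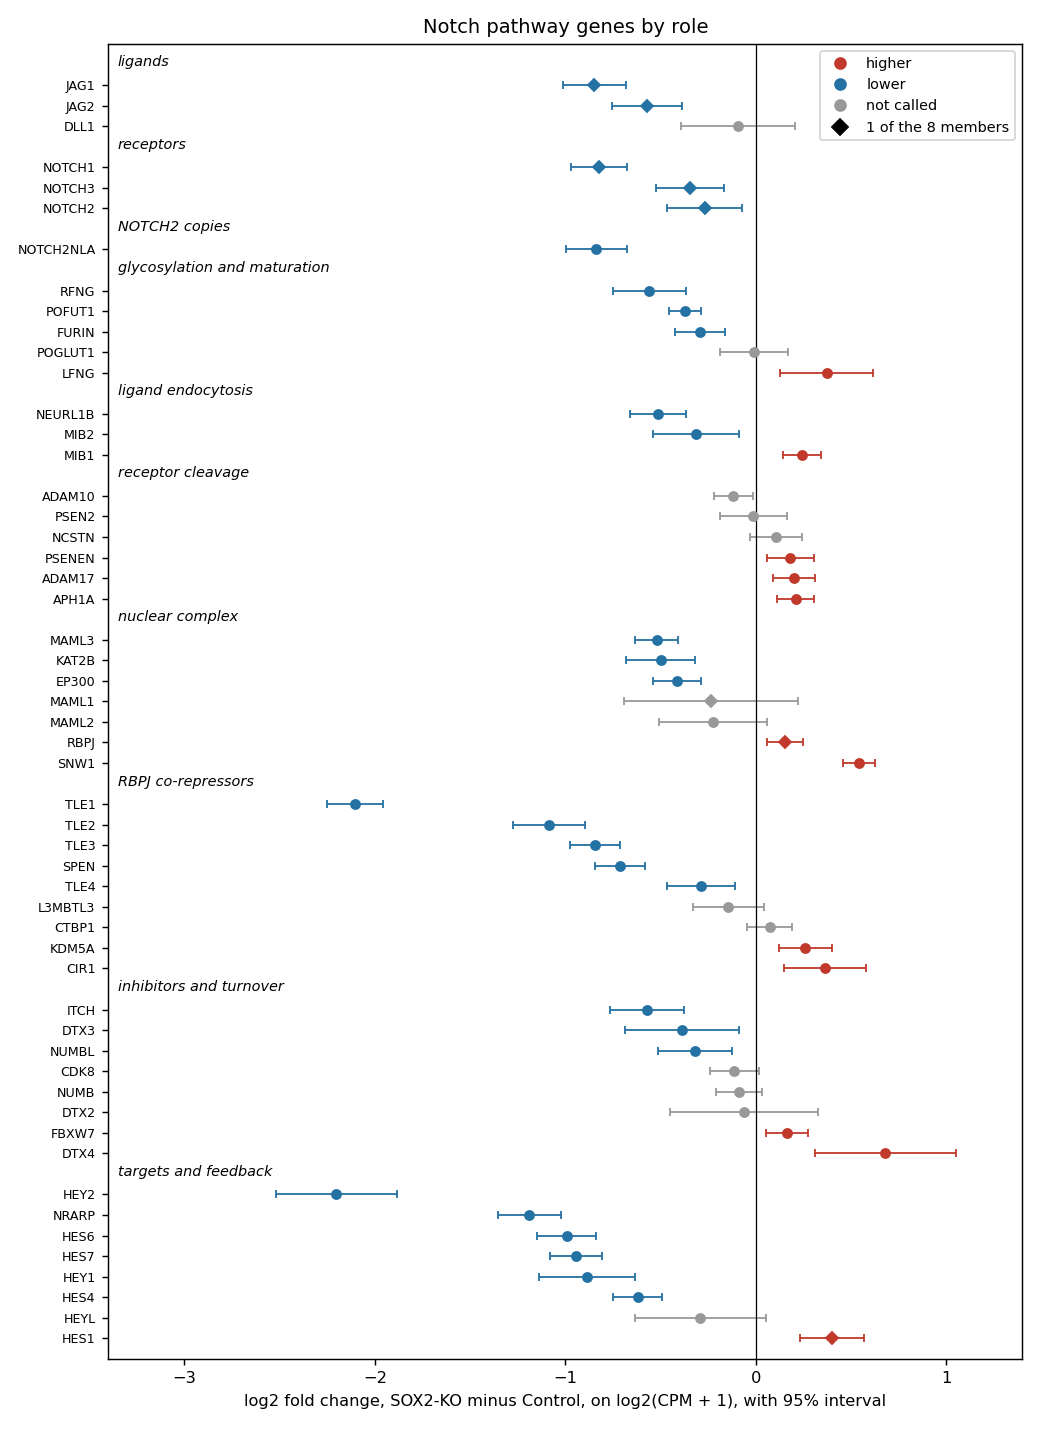
Log2 fold change on log2(CPM + 1), SOX2-KO minus Control, with 95% interval (horizontal axis), of 53 tested pathway genes grouped by role, diamonds for the members, red for called higher, blue for called lower and grey for not called. The drawing holds 53 of the 55 tested genes of the list. Among the target and feedback genes HES1 is the only gene called higher and 6 are called lower, including the HES1 antagonist HES6. Of all genes tested, 32.9% were called lower and 25% higher. The co-repressor TLE1 and the target HEY2 lie farthest left.

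The target and feedback genes other than HES1 were lower or not called. Of 8 tested, 6 fell, HES1 alone rose and HEYL was not called, with a median log2 fold change of −0.92. HES6 is counted among the 6 as an antagonist of HES1, not as a target. Over all genes 32.9% were called lower and 25% higher. NRARP, a Notch target whose product dampens the signal, had 29.2, 29.3 and 26.6 CPM in SOX2-KO replicates 1, 2 and 3, against 73.3, 61.9 and 63.1 CPM in Control replicates 1, 2 and 3 (log2 −1.19 ± 0.07; adjusted p = 2.61e-06). Its SOX2-KO level was less than the lowest Control level in every library. HEY2, a HES-related repressor, had 0.319, 0.408 and 0.194 CPM in SOX2-KO and 4.62, 4.70 and 5.74 CPM in Control (log2 −2.20 ± 0.14; adjusted p = 3.02e-06). With a pseudocount of 0.1 in place of 1 the value was −3.68, and by limma-voom it was −4.00. The SOX2-KO values of HEY2 lie close to the floor of 3 reads, which is 0.117 to 0.145 CPM per library, while the genes around HEY2 were higher (0.29 by the neighbourhood median). HEYL had 1.02 ± 0.0265 CPM in SOX2-KO and 1.49 ± 0.362 CPM in Control (adjusted p = 0.131).

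HES4, HES6, HES7 and HEY1 are named after their values were seen. HES4, a repressor related to HES1, had 41.9, 45.4 and 45.9 CPM in SOX2-KO and 72.9, 66.8 and 66.3 CPM in Control (log2 −0.62 ± 0.06; adjusted p = 2.25e-05). HES4 has 73.9% GC, and with the GC trend removed its value was −0.28 (adjusted p = 4.27e-04). HES6, whose product antagonises HES1, fell to 22.5 ± 1.35 CPM in SOX2-KO, against 45.7 ± 3.14 CPM in Control. HES7, a repressor of the segmentation clock, fell to 30.7 ± 1.07 CPM in SOX2-KO, against 60.2 ± 4.09 CPM in Control. HEY1 fell to 10.6 ± 1.81 CPM in SOX2-KO, against 20.3 ± 1.14 CPM in Control. In all 4 genes the groups did not overlap, as in 64.5% of all genes tested, 36.3% with SOX2-KO lower. The log2 ratio of HES1 to HES4 was −0.95, −1.10 and −1.20 in SOX2-KO libraries and −2.14, −2.02 and −2.15 in Control libraries, a difference of 1.02 without correction for GC. HES1 rose and HES4 fell with no overlap in either, so the ratio had to separate the groups. Its exact two-sided permutation p of 0.1 was therefore fixed in advance.

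The co-repressors that RBPJ recruits fell more often than they rose. Of 10 tested, 6 fell and 2 rose, with a median log2 fold change of −0.50, beside 32.9% lower and 25% higher over all genes. TLE1, a Groucho family co-repressor that HES proteins bind, fell to 10.6 ± 0.451 CPM in SOX2-KO, against 48.9 ± 2.34 CPM in Control (log2 −2.10 ± 0.06; adjusted p = 7.83e-08). KDM5A, a histone demethylase gene, rose to 137 ± 10.1 CPM in SOX2-KO, against 114 ± 6.001 CPM in Control, and CIR1, which links RBPJ to histone deacetylases, rose to 11.2 ± 0.439 CPM in SOX2-KO, against 8.48 ± 0.875 CPM in Control. The log2 value of KDM5A was 0.26 as reported and 0.42 with the length trend removed, and that of CIR1 was 0.36 as reported and 0.66 with the neighbourhood subtracted. CTBP1 had 159 ± 6.49 CPM in SOX2-KO and 151 ± 8.87 CPM in Control and was not called. It was called higher with median-ratio scaling (adjusted p = 0.0496), the GC trend removed (0.00314, and 0.0098 with the block) and the length trend removed (0.0192).

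Of 7 tested genes of the nuclear complex, RBPJ and MAML1 included, 3 fell and 2 rose, which is near the shares over all genes (32.9% lower and 25% higher). MAML3, a second Mastermind-like coactivator, fell to 43.97 ± 0.47 CPM in SOX2-KO, against 63.5 ± 3.25 CPM in Control, and EP300, a histone acetyltransferase, to 155 ± 9.59 CPM in SOX2-KO, against 206 ± 10.2 CPM in Control. The log2 value of EP300 was −0.41 as reported and −0.26 with the length trend removed. SNW1, a co-factor of Notch transcription and of splicing, rose to 120.3 ± 2.46 CPM in SOX2-KO, against 82.3 ± 0.206 CPM in Control (log2 0.54 ± 0.04; adjusted p = 4.66e-06). MAML2 stood at 3.79 ± 0.613 CPM in SOX2-KO and 4.56 ± 0.146 CPM in Control and was not called.

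Of 5 tested genes of glycosylation and maturation, 3 fell and 1 rose, beside 32.9% lower and 25% higher over all genes. POFUT1, which adds O-fucose to Notch receptors, fell to 88.2 ± 1.66 CPM in SOX2-KO, against 114 ± 1.796 CPM in Control, and the fringe gene RFNG to 24.8 ± 2.76 CPM in SOX2-KO, against 36.9 ± 2.24 CPM in Control. The log2 value of POFUT1 was −0.37 as reported and −0.19 with the neighbourhood subtracted, and that of RFNG was −0.56 as reported and −0.36 with the GC trend removed, all called. LFNG, another fringe gene, rose to 4.73 ± 0.131 CPM in SOX2-KO, against 3.43 ± 0.301 CPM in Control (adjusted p = 0.0161), a call that ended without Control replicate 2 (0.059) and with the neighbourhood subtracted (0.0798). POGLUT1 had 25.3 ± 1.79 CPM in SOX2-KO and 25.5 ± 2.06 CPM in Control and was not called. Of 3 tested ubiquitin ligase genes of ligand endocytosis, 2 fell and 1 rose. NEURL1B fell to 120.1 ± 8.53 CPM in SOX2-KO, against 172 ± 10.99 CPM in Control. MIB1 rose to 95.4 ± 2.69 CPM in SOX2-KO, against 80.4 ± 2.92 CPM in Control, and this call ended with the neighbourhood subtracted (log2 0.12, adjusted p = 0.056), while the value was 0.39 with the length trend removed. MIB2 fell to 23.7 ± 3.62 CPM in SOX2-KO, against 29.5 ± 1.49 CPM in Control (adjusted p = 0.0233), a call that ended without any 1 of SOX2-KO replicates 1 and 2 and Control replicates 1 and 2 (adjusted p from 0.0665 to 0.0765), under quantile normalisation (0.0594), with the neighbourhood subtracted (0.117) and with the GC trend removed (0.582).

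Of 7 tested genes of receptor cleavage, 3 rose and 1 fell, with a median log2 fold change of 0.10, beside 25% higher and 32.9% lower over all genes. APH1A, a gamma-secretase subunit gene, rose to 108 ± 4.44 CPM in SOX2-KO, against 92.9 ± 1.24 CPM in Control (log2 0.21, and 0.40 with the neighbourhood subtracted). ADAM17, a protease gene, rose to 62.6 ± 2.83 CPM in SOX2-KO, against 54.3 ± 1.21 CPM in Control, and with the neighbourhood subtracted its value turned to −0.16 (adjusted p = 0.0264). ADAM10, the main protease of ligand-bound receptors, had 101 ± 3.42 CPM in SOX2-KO and 109.5 ± 4.34 CPM in Control and was just short of a call (adjusted p = 0.0508). It was called lower with a filter of 5 CPM (0.045), without SOX2-KO replicate 2 (0.0404) and without Control replicate 1 (0.0236). The log2 value of ADAM10 was −0.12 as reported and −0.06 with median-ratio scaling (adjusted p = 0.346). It turned to 0.10 with the neighbourhood subtracted and to 0.0466 with the length trend removed, neither called.

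Of 8 tested inhibitor and turnover genes, 3 fell and 2 rose, near the shares over all genes (32.9% lower and 25% higher). ITCH, a ubiquitin ligase gene, fell to 77.8 ± 9.77 CPM in SOX2-KO, against 116 ± 7.67 CPM in Control, and NUMBL, a Numb-like inhibitor gene, to 14.6 ± 1.12 CPM in SOX2-KO, against 18.5 ± 1.44 CPM in Control. The NUMBL call ended with the neighbourhood subtracted (log2 −0.04, adjusted p = 0.673). FBXW7, which marks the Notch intracellular part for destruction, rose to 36.3 ± 0.45 CPM in SOX2-KO, against 32.2 ± 0.615 CPM in Control (log2 0.17, and 0.27 with the length trend removed). DTX4, a Deltex ubiquitin ligase gene, rose to 4.55 ± 0.343 CPM in SOX2-KO, against 2.51 ± 0.747 CPM in Control. NUMB had 86.8 ± 6.05 CPM in SOX2-KO and 92.3 ± 0.482 CPM in Control and was not called, except lower with the neighbourhood subtracted (log2 −0.14, adjusted p = 0.0439).

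JAG2, NOTCH1 and NOTCH3 also shared a high GC content, at 64.0%, 62.9% and 63.1% of the longest coding transcript, among the 3015 tested genes with 58.3% GC or more. Of those, 37.1% were called lower, with a median log2 fold change of −0.12, beside 32.9% over all genes. From the lowest GC upward, the other groups of about equal size had 36.3%, 33.6%, 30.6% and 30.6% called lower. Their medians were −0.07, −0.05, −0.03 and −0.03. With each library's trend on GC removed, JAG2 stood at −0.41, NOTCH1 at −0.68 and NOTCH3 at −0.20 on the log2 scale, all called. The part of GC content in these falls was not tested otherwise. JAG1, NOTCH2 and HES1 had 49.4% to 49.9% GC.

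The profile most like that of JAG1 over the 6 libraries belonged to COBLL1, at a Euclidean distance of 0.0684 between values of log2(CPM + 1) centred on each gene's mean, among 10936 protein-coding genes that averaged 5 CPM or more. COBLL1 had 85.2 ± 5.94 CPM in SOX2-KO and 156 ± 1.66 CPM in Control. UBE2H, with 147 ± 11.1 CPM in SOX2-KO and 266 ± 4.58 CPM in Control, and LRRFIP2, with 46.8 ± 2.78 CPM in SOX2-KO and 80.6 ± 3.56 CPM in Control, came next, at distances of 0.0846 and 0.0997.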

How the data were processed

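A single table with CPM values, as the authors deposited it, covers 16949 Ensembl identifiers in 6 libraries, each column summing to 1000000. Per the submitters' processing notes, edgeR 3.22.2, kallisto 0.43.1, STAR, Trimmomatic 0.38, Picard, SAMtools, FastQC and CASAVA 1.8 were used on GRCh38.p12 and hg38, with no role given for any of them. Groups and replicate numbers came from the sample titles. Between 26.5% and 28.4% of the values per library were whole multiples of 1 step (within 0.001 of a read), from which depth was estimated; whole reads were not recovered, so no count model was used. The floors from reads cover counting error only, while the intervals come from the limma fit over the libraries. GENCODE 29, with 16010 of the identifiers, gave positions, lengths and GC content.

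Values of log2(CPM + 1) were fitted with limma 3.58.1 (R 4.3.3), group as the only term and a trended prior, over the 15927 genes averaging 1 CPM or more. A gene was called where its adjusted p (Benjamini-Hochberg) was under 0.05. Fold changes on this scale understate the change of low genes. The script was tested on simulated data with known changes. Counting noise was exceeded between all replicate pairs (median chi-square per gene 0.855 to 1.87, against 0.455). The members and lists were chosen with earlier results of these data known. Named genes were the members and, per role, up to 2 genes with the smallest p called in each direction and the uncalled gene of highest mean. Alternatives were pseudocounts of 0.1 and 0.5, no filter, a filter of 5 CPM, quantile normalisation, median-ratio scaling, limma-voom on estimated reads, the replicate block, neighbourhood subtraction (genes within 5 Mb) and leaving out each library. Removal of each library's trend on GC content (also with the block) or on length, and the NOTCH2 sum, were added after seeing the data. Some list genes and markers are counted but not reported singly here.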

Additional observations from a re-analysis of the deposited data

How the results depend on the processing

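Under 18 alternatives the number of genes called stayed between 8083 and 9402 (8132 to 8892 with 1 library left out) and the number of called genes in the wider list between 36 and 42. Of the 8 members 6 or 7 were called, except with the neighbourhood subtracted, where 4 were called. SOX2 stayed between −3.67 and −3.07. The balance of directions over all genes depended on the scaling, with 3976 called higher and 5234 lower as reported. Median-ratio scaling gave 4572 higher and 4512 lower, and quantile normalisation 4670 higher and 4498 lower. The wider list then had 14 higher and 28 lower, and 12 higher and 25 lower, in that order. The JAG1 to JAG2 difference was recomputed under 10 of the alternatives only (pseudocounts, scalings and leaving out each library), and there stayed between −0.35 and −0.23. With the longest coding transcript 3 of 8 members kept their rank per kb. The replicate numbers did not pair the samples (correlations of deviations −0.0446, 0.0383 and −0.0135): with the replicate block 8727 genes, 42 list genes and 7 members were called. Of the 32 other named genes 23 changed neither call nor sign.

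Signs turned for MAML1 without SOX2-KO replicate 2 (0.0282, in a range of −0.448 to 0.0282 with 1 library left out). POGLUT1 (−0.01) turned with median-ratio scaling (0.0476), quantile normalisation (0.0626), limma-voom (0.0018), the GC trend removed with and without the block (0.0534) and the length trend removed (0.0495), and ranged from −0.0629 to 0.0498 with 1 library left out. With the neighbourhood subtracted ADAM10 turned to 0.10, ADAM17 to −0.16 and CTBP1 to −0.0114, and with the length trend removed ADAM10 turned to 0.0466 and NUMB to 0.0065. The causes were not tested. At HEY2 and DLL1 depth is the limit, with as few as 5 and 22 estimated reads in a library.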
